A study of Tupaia belangeri with 6 samples.

Results

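Of 37603 nuclei from the hippocampus of 6 tree shrews (TSs, *Tupaia belangeri*), 561 met a rule for ependymal ciliated cells. The rule asked for at least 200 genes, for at least 5 unique molecular identifiers (UMIs) summed over DNAH9, DNAH11, DNAH12, SPAG17, CFAP43, HYDIN and FOXJ1, for at least 2 of these genes, and for no UMI of MOG, PDGFRA, PTPRC, GAD1 or NEUROD6. A UMI marks 1 captured RNA molecule. The label held for only 150 of the 561 nuclei (26.7%), which lay together in 1 cluster of 203 nuclei with transcripts of many parts of the ciliary axoneme. The other 411 were spread over many clusters, most of them neuronal by SYT1, and were deeper by median, and they are called nuclei that met the rule outside the cluster. The values of the rule genes chose all 561, so that these values and every contrast of the nuclei with the rest are given as a description with no test.

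Single-nucleus RNA sequencing on the 10× Genomics 3′ platform gave 1 library for each of 3 control and 3 ALP TSs, where ALP stands for Alzheimer's-like pathology. All 6 animals were aged, no engineered allele or agent is named for either group, and ALP and control animals had been told apart by their performance in a pipeline maze. Sex is not given for each library. DDX3Y, which lies on the Y chromosome, had 1294, 777 and 1425 UMIs in Control 1, Control 2 and ALP 2, and 7, 1 and 1 UMIs in Control 3, ALP 1 and ALP 3, so that such libraries were more frequent among the controls. Control 1, 2 and 3 held 8785, 3011 and 7969 nuclei with 32679011, 19748976 and 35898940 UMIs, and ALP 1, 2 and 3 held 5091, 7151 and 5596 nuclei with 20119934, 30520809 and 19182981 UMIs. The median nucleus had 5181 UMIs in Control 2 and between 1747 and 2492 UMIs in the other libraries. Of the 561 nuclei, 6 had a barcode that also occurred in another library, none of them among the 150 in the cluster.

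Ependymal cells line the ventricles of the brain and carry tufts of motile cilia that move cerebrospinal fluid. The shaft of such a cilium, the axoneme, is a ring of microtubule doublets around a central pair. Outer and inner dynein arms power the beat, radial spokes and the central pair control it, assembly factors preload the dyneins in the cytoplasm, and intraflagellar transport carries the parts to the tip. The programme is switched on by GMNC, MYB, RFX factors and FOXJ1.

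The cluster was ependymal-like by the markers fixed for that name, since all 5 of them (DNAH9, DNAH12, SPAG17, CFAP43 and FOXJ1) were enriched in it. These markers also chose the nuclei. Of 13 further ciliary markers that the rule did not use, the 150 nuclei carried a median of 8, and all 150 carried at least 3. The clusters were made from the counts of these same nuclei, so that the contrast of inside and outside is a description and no separate evidence. The nuclei outside the cluster carried a median of 1, with at least 3 in 59 of the 411 (14.4%) and none in 138. The 150 nuclei had a median of 14 UMIs of the rule genes, or 65.6 per 10000 UMIs, at a depth of 2051 UMIs. The 411 nuclei had a median of 5 UMIs of the rule genes, or 6.75 per 10000, at a depth of 8827 UMIs. By these medians the nuclei in the cluster were shallower and richer in the rule genes, while the remaining nuclei had a median of 0 UMIs of these genes and a depth of 2274 UMIs.

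The axoneme also differed between these nuclei, with the same limit. The 203 other axoneme genes of the lists took a median of 4.99% of the UMIs of a nucleus in the cluster (range 0.927% to 8.14%), with 56 of the genes seen. In the nuclei outside the cluster they took 0.302%, with a highest value of 1.80% that lay within the range of the cluster, and in all remaining nuclei 0.256%. The median for the nuclei in the cluster was 5.07%, 4.4% and 4.3% in Control 1, 2 and 3 and 4.89%, 5.08% and 5.15% in ALP 1, 2 and 3. It differed little from library to library, and the libraries of both groups overlapped.

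**Figure D1:**
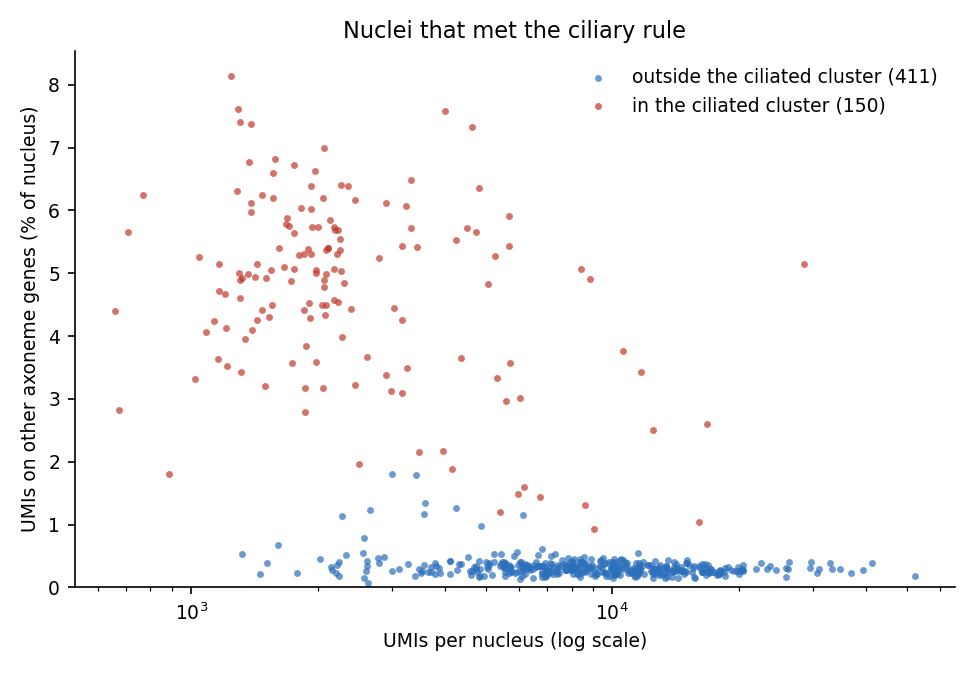
Each point is 1 of the 561 nuclei that met the rule, with its UMIs on a log axis and the percentage of them on 203 axoneme genes that the rule did not use. The 150 nuclei in the ciliated cluster (red) had a median of 4.99%, the 411 outside it (blue) a median of 0.302% at a higher depth.

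At the threshold of the rule the label was weakest. Of 217 nuclei with exactly 5 UMIs of the rule genes 7 lay in the cluster, and of 440 nuclei just outside the rule with 4 UMIs 3 lay in it. The share in the cluster was 37.5% at 8 to 9 UMIs, 68.3% at 10 to 14, 90.4% at 15 to 29 and 100% among the 21 nuclei with 30 or more. Another 53 nuclei of the cluster missed the rule, 18 with fewer than 5 UMIs and 35 through a UMI of a gene that had to be 0. Among those 35, MOG, a myelin gene, had a UMI in 18 and NEUROD6, a gene of excitatory neurons, in 13. Over all nuclei these 5 genes removed 701 that passed the rest of the rule.

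Of the 411 nuclei outside the cluster, 364 lay in 23 clusters where SYT1, a synaptic vesicle protein, was detected in at least 90% of the nuclei. Another 34 lay in 2 clusters with AQP4, the astrocyte water channel, in at least 40% of the nuclei, and 13 lay elsewhere. No other cluster of at least 50 nuclei consisted of nuclei that met the rule by more than 12.5%. SYT1 was detected in 90.8% of the 411 nuclei, in 22.7% of the 150 in the cluster and in 59.3% of the remaining nuclei. Among genes detected in at least 20% of the 411, those with the highest ratio to the remaining nuclei were the rule genes DNAH9, SPAG17, HYDIN, DNAH12 and DNAH11, followed by THSD7B, which was detected in 27.2% of them and in 6.82% of the remaining nuclei. Marked doublets were 44 of the 561 nuclei, and none of these lay in the cluster.

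Each of the 7 rule genes was detected more often in the cluster than in the remaining nuclei, while DNAH12 was found still more often, in 90.5%, among the 411 nuclei outside the cluster. SPAG17, a central pair protein, was found in 93.3% of the 150 nuclei against 9.87% of the remaining nuclei, and DNAH9, an outer arm heavy chain, in 86.7% against 11.9%. HYDIN, also of the central pair, was found in 83.3% against 6.30%, DNAH12, an inner arm chain, in 82.7% against 23.3%, CFAP43 in 79.3% against 2.20%, and DNAH11, a further outer arm chain, in 71.3% against 7.01%. FOXJ1, the master regulator of motile cilia, was seen in 21 of the 150 nuclei (14%) and in 0.0946% of the remaining nuclei. In CPM, the counts of a gene scaled to the total UMIs of the nuclei summed, FOXJ1 reached 99.1, 147 and 28.6 in Control 1, 2 and 3 and 59.9 and 129 in ALP 2 and 3. Its count was 0 in the 12 nuclei of ALP 1, which allows a share of nuclei with a UMI of up to 25%. Intervals and limits of this kind cover counting error only.

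The dynein arms, which generate the beat, were present with most of their parts. Of the outer arm genes, 10 of the 17 listed were detected in at least 10% of the 150 nuclei, and all 10 were at least 2-fold above the remaining nuclei, with a median log2 ratio of 4.47. Over all 4780 features detected as often, 1631 were 2-fold higher and 367 lower, with a median of 0.44. ARMC4, part of the docking complex of the outer arm, had 605, 442 and 644 CPM in Control 1, 2 and 3 and 536, 554 and 776 in ALP 1, 2 and 3, against 2.13 in the remaining nuclei. DNAI1, an intermediate chain, had 416, 368 and 387 in the controls and 330, 464 and 323 in ALP, against 3.33. Both were high in every library, and the groups overlapped. DNAH5, a heavy chain whose loss causes primary ciliary dyskinesia, ranged from 387 in Control 3 to 1031 in Control 2, against 18.7.

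Of the inner arm and its regulatory complex, 13 of 25 listed genes were detected in at least 10% of the nuclei and all 13 were at least 2-fold higher (median log2 ratio 4.47). DNAH6, an inner arm heavy chain, had 1254, 1215 and 830.4 CPM in the controls and 1031, 943 and 1207 in ALP, against 7.24 in the remaining nuclei. Control 3 was the lowest, and the groups overlapped. DNAH10 had 0 UMIs in all 561 nuclei, which allows a share of nuclei with a UMI of up to 0.535%, and 1 UMI in the remaining nuclei. DNAH6 and DNAH7, a related chain, were seen in 83.3% and 72.0% of the 150 nuclei. Why DNAH10 was not seen was not tested. The dynein assembly factors gave 6 of 7 such genes at least 2-fold higher (20 listed, median log2 ratio 3.40), led by SPAG1 with 453 CPM against 41.9 in the remaining nuclei.

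The radial spokes and the central pair control the beat. All 8 radial spoke genes and all 16 central pair genes detected in at least 10% of the nuclei were 2-fold higher (21 and 19 listed, 17 and 19 of them in the files), with median log2 ratios of 4.65 and 4.62. CFAP54, of the central pair, had 1521, 1730 and 1274 CPM in the controls and 1402, 1288 and 1509 in ALP, against 34.4 in the remaining nuclei. Its values differed little from library to library, and the groups overlapped. RSPH1, a radial spoke head protein, had 273, 571 and 215 in the controls and 454, 464 and 539 in ALP, against 4.36. The microtubule inner proteins and tektins, which line the doublets, gave 13 of 13 such genes at least 2-fold higher (31 listed, median log2 ratio 3.82), among them TEKT3 with 207 CPM against 2.72. Of 70 other axoneme and motile cilium genes detected as often (110 listed), 68 were 2-fold higher, with a median log2 ratio of 4.89.

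Transport into the cilium stood less apart. Intraflagellar transport gave 12 of 14 genes at least 2-fold higher (33 listed), but with a median log2 ratio of only 1.45. These genes also serve the primary cilium that many cells carry, and all other nuclei held them at 851 CPM in sum against 2212 in the cluster. DYNC2H1, the motor of the return path, had 491, 791 and 315 CPM in the controls and 495, 509 and 345.0 in ALP, against 108 in the remaining nuclei. KIF3A, a subunit of the outward motor, had 142 against 140 and did not stand apart. The summed outer arm genes, in contrast, came to 2419 CPM against 94.1.

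**Figure D2:**
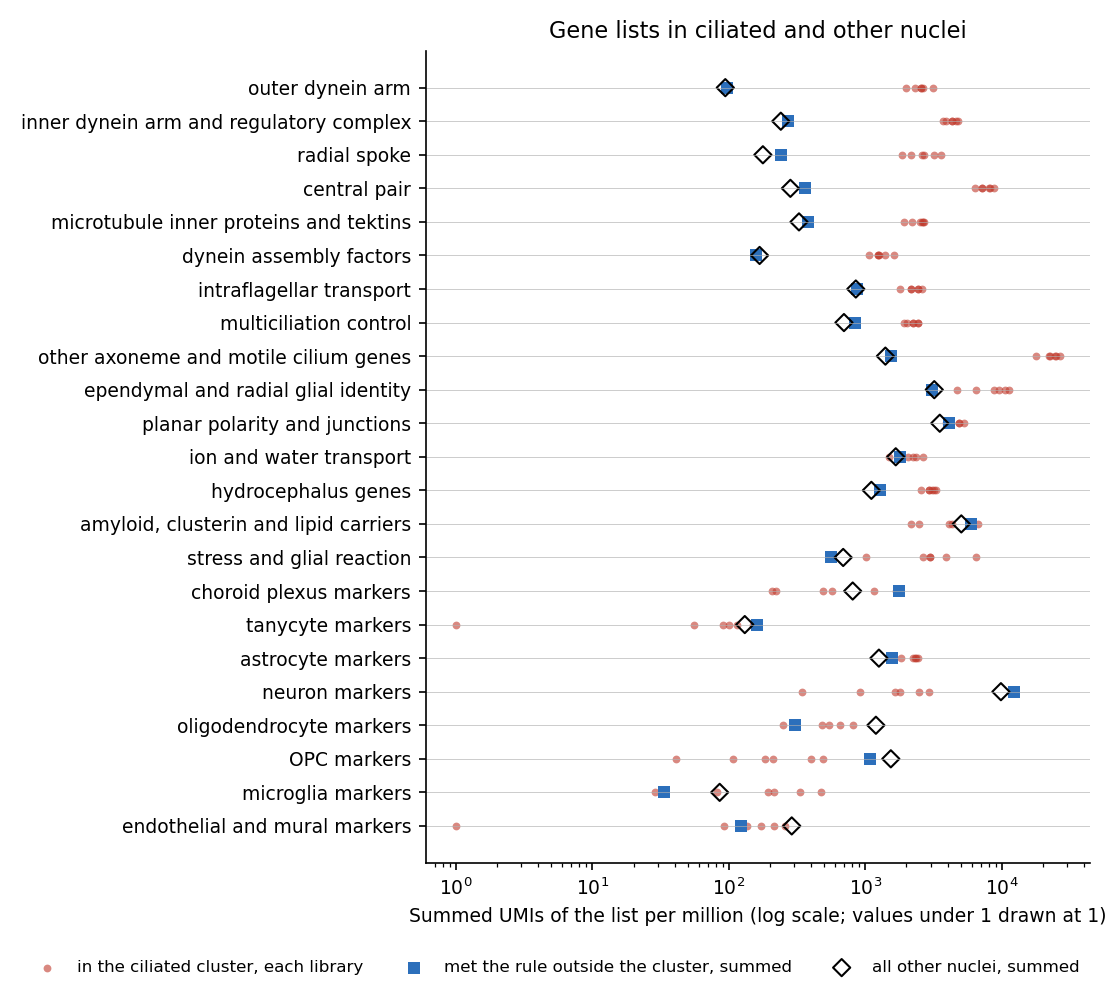
Summed CPM (log axis) of each gene list, without the 7 rule genes, for the nuclei in the ciliated cluster in each of 6 libraries (red), for the nuclei that met the rule outside the cluster (blue squares) and for all other nuclei (diamonds). Central pair genes lay between 6342 and 8823 in the cluster against 363 and 282, while the nuclei outside the cluster lay beside all other nuclei in the axoneme lists. A list with 0 UMIs in a library is drawn at 1.

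The genes that switch on multiciliation were read in the same nuclei. MYB had 183, 129 and 85.9 CPM in the controls and 330, 285 and 216 in ALP, against 0.340 in the remaining nuclei. GMNC, the upstream coactivator of the programme, had 456, 663 and 301 in the controls and 660, 629 and 604 in ALP, against 3.55. For MYB the 3 ALP libraries lay above the 3 control libraries, while GMNC overlapped. Of 5 listed multiciliation genes detected in at least 20% of the nuclei, 1 lay above in this way and 1 lay below. Only 2 of the 5 had a higher mean in ALP, with a median log2 ratio of ALP to control of -0.19. Over all features detected as often, 6.46% lay above and 7.44% below, with a median of -0.04. RFX4 had 237 CPM against 36.0 in the remaining nuclei. Of 31 listed control genes 11 were detected in at least 10% of the nuclei and 6 of these were 2-fold higher.

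Among features with a gene symbol, 19 of the 25 with the highest ratio to the remaining nuclei were on the 7 axoneme lists, and SIX5, a homeobox transcription factor, had the highest. SIX5 was detected in 96.7% of the 150 nuclei and in 2.47% of the remaining nuclei, and it had 2036, 1656 and 1661 CPM in the controls and 3876, 2381 and 4441 in ALP. Against 7.25 in the remaining nuclei this was a 281-fold ratio with 1 added to both values, and all 3 ALP libraries lay above the controls. SNTN, the tip protein sentan, followed with 350 CPM against 0.300 and was found in 52.7% against 0.119% of the nuclei. Next came VWA3A with a 222-fold ratio, SPATA17 with 218, CAPSL with 206, ARMC4 with 191, SPEF2 of the central pair with 180 and the kinase MAP3K19 with 172. LRRC71, MYB, ARMC3, FRMPD2, DNAH6, FAM81B, TMEM232, CFAP43, LRRC18, AK7, WDR38, GMNC, DTHD1, CFAP46, IQCA1, CCDC33 and DNAI1 completed these 25 gene symbols, with ratios down to 92.4. All of them were higher than the remaining nuclei in 6 of 6 libraries.

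**Figure D3:**
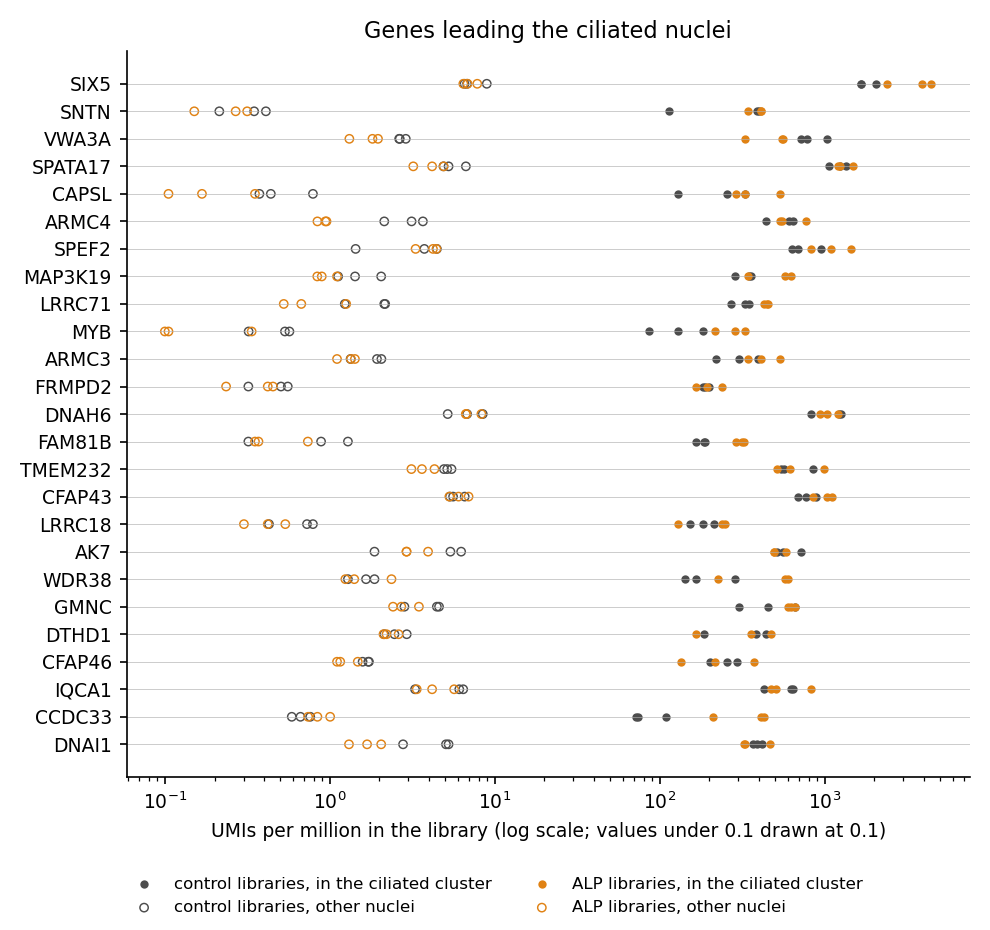
CPM (log axis) of the 25 gene symbols with the highest ratio, per library, in the nuclei of the ciliated cluster that met the rule (filled) and in all other nuclei (open), with control libraries in grey and ALP libraries in orange. Filled and open points did not overlap for any of the 25, and SIX5 lay between 1656 and 4441 in the cluster. Values under 0.1 are drawn at 0.1.

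Features without a protein name took part. In all, 434 features were detected in at least 20% of the 150 nuclei at 4 times or more the level of the remaining nuclei, of which 325 carried gene symbols, 32 were named antisense, 30 intergenic and 47 copies. FOXN3-AS-5 was found in 86.0% of the nuclei against 1.98%, with 2035 CPM against 5.59, the highest ratio of any feature (309). LINC-RHOBTB1-5 and LINC-EEF1A1-142 were next among features without a gene symbol, with ratios of 181.5 and 171.5. Whether strand was used in counting is not given in the sources used here, so that antisense features cannot be told apart from the genes they overlap.

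Glial and ependymal identity genes accompanied the cilium. Of 36 listed genes 20 were detected in at least 10% of the nuclei, of which 16 were 2-fold higher and 1 lower (median log2 ratio 2.10). VIM, an intermediate filament of ependyma, had 1011, 1472 and 85.9 CPM in the controls and 495, 749 and 819 in ALP, against 22.6 in the remaining nuclei. CLU, the lipid carrier clusterin, had 1348, 2153 and 229 in the controls and 371, 1123 and 949 in ALP, against 156. Control 3 was the lowest of all libraries for both, and the spread within the controls was wider than the difference between the groups. SLC1A3, a glial glutamate transporter, was seen in 73.3% of the nuclei, AQP4 in 43.3% and GFAP, the astrocyte filament, in 34%, against 23.8%, 8.22% and 6.32% of the remaining nuclei. SLC1A2, the main astrocyte glutamate transporter, was at 14% against 15.02% and did not stand apart by this share of nuclei. MT3, a metallothionein, had 1987 CPM against 316, with values from 644 in Control 3 to 4032 in ALP 3.

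Polarity and transport genes were mixed. Of 14 polarity and junction genes detected in at least 10% of the nuclei 6 were 2-fold higher and 2 lower. EZR, which anchors the apical membrane, had 123 CPM against 6.68, whereas CDH2, N-cadherin, had 283 against 287. Of 16 ion and water transport genes 8 were higher and 2 lower. The bicarbonate transporter SLC4A4 had 347 CPM against 227. Of 11 such genes linked to hydrocephalus 5 were higher and 1 lower, and the largest of these values was that of SPEF2 with 811 against 3.52. Of 13 genes of amyloid, clusterin and other lipid carriers 5 were higher and 3 lower, and APP, the amyloid precursor protein, had 220 CPM against 474.

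Markers of neighbouring cell types were measured in the same 150 nuclei. Of 6 choroid plexus markers HTR2C had 0 UMIs, which allows a share of nuclei with a UMI of up to 2%, while TTR had 292 UMIs in 26 nuclei. KCNJ13 had no UMI in any nucleus. OTX2 was at 0 in all 561 nuclei and in the remaining nuclei, and had UMIs only in nuclei of the cluster that missed the rule. TTR had 1159, 184 and 28.6 CPM in Control 1, 2 and 3 and 0, 14.97 and 970.2 in ALP 1, 2 and 3, so that Control 1 and ALP 3 stood apart from the rest in both directions of the design. In the remaining nuclei TTR came to 114, 47.8 and 18.3 in the controls and 118, 5.44 and 21.0 in ALP. Over all 561 nuclei 16 had at least 10 UMIs of the choroid plexus markers, of which 4 lay in the cluster, and they came from Control 1 (9), Control 3 (4) and ALP 3 (3). The list of 9 tanycyte markers reached 99.3 CPM in sum against 131 in the remaining nuclei, with LHX2 as its most abundant gene. All 6 neuron markers detected in at least 10% of the nuclei were at least 2-fold lower, and the 16 listed came to 2179 CPM against 9840 in all other nuclei and 12320 in the nuclei outside the cluster. The myelin genes MBP and MOBP were at 0 (MOBP in all nuclei), and CD74, the most abundant microglia marker, was seen in 18.0% against 3.29%. The 34 of the 150 nuclei with SYT1 had a median of 3005 UMIs and 3.58% of them on axoneme genes. Those without it had 1924 UMIs and 5.13%. SYT1 at this share was not read as expression by ciliated cells, and its source, free RNA in the droplets included, was not tested.

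How many such nuclei ALP and control TSs held was the first comparison between the groups. The rule was met by 131, 100 and 173 nuclei in Control 1, 2 and 3 (1.49%, 3.32% and 2.17%) and by 34, 86 and 37 nuclei in ALP 1, 2 and 3 (0.668%, 1.20% and 0.661%). The share was 2.33% ± 0.925 (SD, n = 3) in control and 0.844% ± 0.311 (n = 3) in ALP TSs, a difference of -1.48 percentage points. The groups did not overlap, with p = 0.1 in a two-sided exact permutation test, the smallest value that 20 arrangements of 6 libraries allow. Fewer cells and less RNA per cell cannot be told apart in a share set by a minimum of UMIs.

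Most of this difference lay in the nuclei outside the cluster. They made up 0.979%, 2.72% and 1.84% of the nuclei of Control 1, 2 and 3 and 0.432%, 0.783% and 0.322% of those of ALP 1, 2 and 3, and the groups did not overlap. By median, such a nucleus held 7600.5, 10062.5 and 10031 UMIs in Control 1, 2 and 3, compared with 7452.5, 8651 and 3393.5 in ALP 1, 2 and 3, and the part of depth in the difference was not tested. The nuclei in the cluster made up 0.512%, 0.598% and 0.326% in the controls, from 45, 18 and 26 nuclei, and 0.236%, 0.420% and 0.340% in ALP, from 12, 30 and 19 nuclei. Their share was 0.479% ± 0.139 (SD, n = 3) in the controls and 0.332% ± 0.0922 (n = 3) in ALP, and the libraries overlapped. The difference of -0.147 percentage points ran from -0.0877 without Control 2 and -0.0993 without ALP 1 to -0.223 without Control 3. The exact binomial interval of Control 3 was 0.213% to 0.478% and that of ALP 2 0.283% to 0.598%, so that the order of these libraries was within counting error. With every nucleus thinned to 1000 UMIs and at least 3 UMIs of the rule genes required, 224 nuclei of 32710 deep enough met the rule, 0.817% ± 0.108 in control and 0.554% ± 0.113 in ALP TSs, again without overlap and with p = 0.1 in the exact test.

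**Figure D4:**
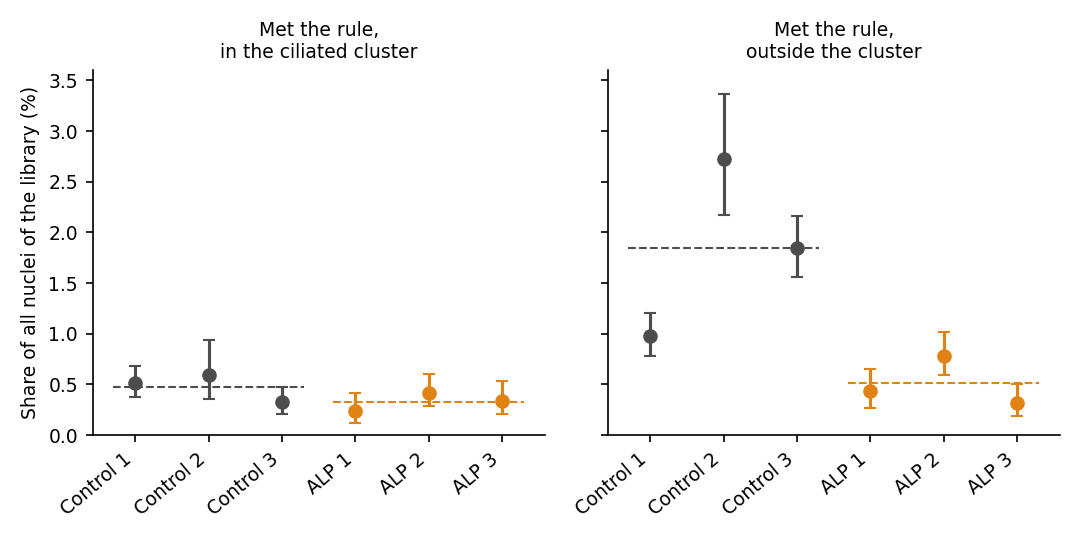
Nuclei that met the rule as a percentage of all nuclei of each library, in the ciliated cluster (left) and outside it (right), with exact 95% binomial intervals and the mean of each group as a dashed line. In the cluster the control libraries lay between 0.326% and 0.598% and overlapped ALP at 0.236% to 0.420%, while outside the cluster the lowest control library (0.979%) lay above the highest ALP library (0.783%).

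Expression in ALP and control TSs was then compared on UMIs summed per library over the 561 nuclei. With edgeR's quasi-likelihood test and Benjamini-Hochberg adjustment, 0 of 9369 features passed (0% called, adjusted p under 0.05 and a log2 fold change beyond 0.25), 1045 (11.2%) reached an unadjusted p below 0.05, and the libraries of the groups did not overlap for 1597 (17%). DESeq2 called 33, of which 6 were higher and 27 lower in ALP. The sums mixed the 150 ciliated nuclei with the 411 others, which were the deeper ones, and the ciliated share of the nuclei ran from 15.03% in Control 3 to 51.4% in ALP 3. None of the 8 features with the smallest p passed in edgeR, whereas all 8 had a DESeq2 adjusted p under 0.05, between 3.784e-07 and 0.0461. Those reported here were ERBB4, a neuregulin receptor (1407 ± 340 CPM in control and 320 ± 37.0 in ALP, SD, n = 3, edgeR adjusted p = 0.168), KCTD8, CNTN4-AS-4, ZNF385D, MST1, DLX6 and LINC-SLITRK3-3, with edgeR adjusted p up to 0.312. The log2 fold change of ERBB4 was -2.13, but -0.95 with the cell filter of the study and -0.76 with the nuclei of other cell types left out. MST1 was the only one of the 8 with a higher value in ALP. DLX6, a homeobox gene of forebrain interneurons, had 39.8 ± 17.5 in control and 2.53 ± 3.09 in ALP TSs. The nuclei outside the ciliated cluster numbered 86, 82 and 147 in Control 1, 2 and 3 and 22, 56 and 18 in ALP 1, 2 and 3. The cluster with most of them, with SYT1 in 95.4% of its nuclei, held 35, 5 and 19 from the controls and 1, 5 and 4 from ALP. Another, with SYT1 in 99.0%, held 3, 10 and 11 from the controls and 6, 17 and 1 from ALP. Some clusters with fewer of them held control nuclei only. A cluster led by ADARB2 features held 3, 3 and 9 of them from Control 1, 2 and 3. A cluster with DLX6 among its leading features held 3, 1 and 1, and both held 0 from each ALP library. The cluster led by SST held 1, 5 and 5 from the controls and 1, 3 and 0 from ALP. The part of these clusters in the falls was not tested.

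By role, the lists had these counts in the same fit. Of 61 other axoneme genes tested 55 had a higher value in ALP and 0 passed, with a median log2 fold change of 0.61 against -0.01 over all 9369 features. All 14 central pair genes and 7 of 8 outer arm genes had higher values and 0 passed, with medians of 0.83 and 0.97. Of 11 neuron markers 4 had higher values (median -0.17), and of 22 ependymal and radial glial genes 20 (median 0.53). The ciliated share of the nuclei given above differed between libraries, and its part in these medians was not tested.

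With nuclei of at least 3 UMIs of neuron, oligodendrocyte, microglia or choroid plexus markers left out, 185 nuclei remained, 67.0% of them in the cluster. SYT1 and CSMD1 did not count among these neuron markers. The nuclei left from Control 3 held 268 and 615 UMIs of them, so that nuclei rich in both could stay. They were 44, 19 and 46 nuclei in Control 1, 2 and 3 and 19, 30 and 27 in ALP 1, 2 and 3, and 10, 7 and 23 of the controls and 7, 4 and 10 of the ALP nuclei lay outside the cluster. In these, edgeR called 66 of 1134 features (5.82%), 15 higher (1.32%) and 51 lower (4.5%) in ALP, and in 271 (23.9%) the groups did not overlap. The count rested on single libraries, since it was 0 without ALP 1, 1 without ALP 3, 20 without ALP 2 and 22 without Control 3, and rose to 86 without Control 2 and 159 without Control 1. It was 92 when the presence of Y-linked RNA entered the model as a covariate.

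Of the called features that rose, DNAH8, a heavy chain of the outer arm, is an axonemal motor. It had 98.4, 45.5 and 98.5 CPM in Control 1, 2 and 3 and 398, 503 and 445 in ALP 1, 2 and 3, a log2 fold change of 2.36 ± 0.468 (SE, edgeR adjusted p = 0.0106). The counts were small, 9, 2 and 9 UMIs in the controls and 9, 18 and 15 in ALP, and every ALP library lay above every control. CCDC33 rose by 2.39 on the log2 scale (edgeR adjusted p = 0.0173) and LRRC46 by 1.61 (edgeR adjusted p = 0.0274). DNAH8 and CCDC33 passed the filter on low counts only through their ALP libraries. The order of the groups was thus in part set by that filter for both genes, and it is no support on its own. IQUB, a radial spoke protein, rose by 1.43. It and DNAH8 were the 2 called of 65 genes tested from the 7 lists of axoneme genes (3.08%), beside 5.82% called over all features and 1.32% called higher. SLC14A1, a urea transporter, rose from 651 ± 171 to 2117 ± 303 CPM (SD, n = 3, log2 fold change 1.69, edgeR adjusted p = 0.0127). SLC14A1 and LINC-RPL36A-4 were also among the 10 leading features of an astrocyte-marker cluster, and astrocyte markers had not been used to leave nuclei out. Of the nuclei compared, 2, 3 and 7 in Control 1, 2 and 3 and 7, 2 and 9 in ALP 1, 2 and 3 lay in clusters with AQP4 in at least 40% of the nuclei, and their part in these rises was not tested. GFAP and SLC1A3 of the glial lists rose by 1.44 and 1.20 and MT3 by 1.49. The other large rises were the noncoding SLC15A2-AS-1, LINC-RPL36A-4, LINC-MRPL42-8 and LINC-RHOBTB1-5.

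Of the features that fell, ADARB2, a paralogue of RNA editing enzymes, had 711, 1955 and 1576 CPM in the controls and 0, 27.97 and 89.1 in ALP, a log2 fold change of -4.95 (edgeR adjusted p = 0.000999). KCNQ5, LINC-RP1-21O18.1-3, NRXN3, TENM2, EPHA6, TENM1 and XKR4 followed, with log2 fold changes from -4.70 to -3.11. ADARB2, KCNQ5, EPHA6 and TENM1 passed the filter on low counts only through their control libraries, which limits their falls in the same way. Of 5 neuron markers tested 4 fell (CSMD1, GRIN2A, KCNQ5 and SYT1), beside 51 of 1134 (4.5%) called lower over all features. The 16 neuron markers of the gene list are not the set used to leave nuclei out. They came to 2924, 7054 and 6998 CPM in these nuclei of Control 1, 2 and 3 and to 1308, 1547 and 1075 in ALP 1, 2 and 3. CSMD1 was the most abundant in each library. These sums are unscaled, unlike the CPM of the tested features. Neuronal RNA in these nuclei thus moved with the group and its part in the calls was not tested. In the 150 nuclei of the cluster the same sum was 2928, 1638 and 2462 in the controls and 907, 1797 and 345.0 in ALP, which overlapped. CSMD1 was the most abundant in every library but Control 2. Among 3 neuron markers detected in at least 20% of the 150 nuclei, SYT1 and MAP2 were lower in each ALP library than each control. Over all features detected as often, 137 of 1842 (7.44%) lay below in this way. CSMD1 overlapped, and the median log2 ratio of the 3 markers was -1.08 against -0.04 over all features.

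In the nuclei of the cluster alone the groups were set side by side with no test, because the cluster was chosen from these data. Of 1842 features detected in at least 20% of the 150 nuclei, all ALP libraries lay above all controls for 119 (6.46%) and below for 137 (7.44%). Of 104 axoneme genes detected as often, 12 lay above and 2 below, and 64 had a higher mean in ALP, with a median log2 ratio of 0.18 against -0.04 over all features. DNAH8 had 114, 36.8 and 143 CPM in Control 1, 2 and 3 and 371, 285 and 388 in ALP 1, 2 and 3. IQUB had 282, 313 and 258 in the controls and 742, 509 and 539 in ALP. CCDC33 had 109, 73.6 and 71.6 in the controls and 412, 210 and 431 in ALP. The groups did not overlap for these 3 genes, which had been called in nuclei of which 67.0% were these same ones, so that this is no separate evidence. SLC14A1 had 446, 368 and 730.1 in the controls and 742, 1258 and 1552 in ALP, where Control 3 and ALP 1 nearly met.

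Other genes did not keep this order within the cluster. GFAP had 258, 699 and 115 CPM in the controls and 206, 434 and 625 in ALP, SLC1A3 926.5, 718 and 673 against 948, 1018 and 862, and MT3 1962, 2282 and 644 against 1897, 1842 and 4032. All 3 overlapped between the groups. SYT1 was lower in each ALP library, with 540.1, 552 and 501 in the controls and 165, 240 and 21.6 in ALP. Its UMIs lay in only 10, 9 and 8 nuclei of Control 1, 2 and 3 and in 3, 3 and 1 of ALP 1, 2 and 3. As given above, nuclei with SYT1 were deeper and had a lower axoneme share by median. A change within ciliated cells cannot be read from this order. DRC7, of the dynein regulatory complex, was 1 of the 2 axoneme genes that lay below, with 327, 589 and 816 in the controls and 206, 165 and 237 in ALP. CTNNB1, the junction protein and signalling factor beta-catenin, had 104, 129 and 85.9 in the controls and 41.2, 29.95 and 43.1 in ALP. These sums rest on 12 to 45 nuclei per library, so that 1 UMI in ALP 1 is worth 41.2 CPM.

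**Figure D5:**
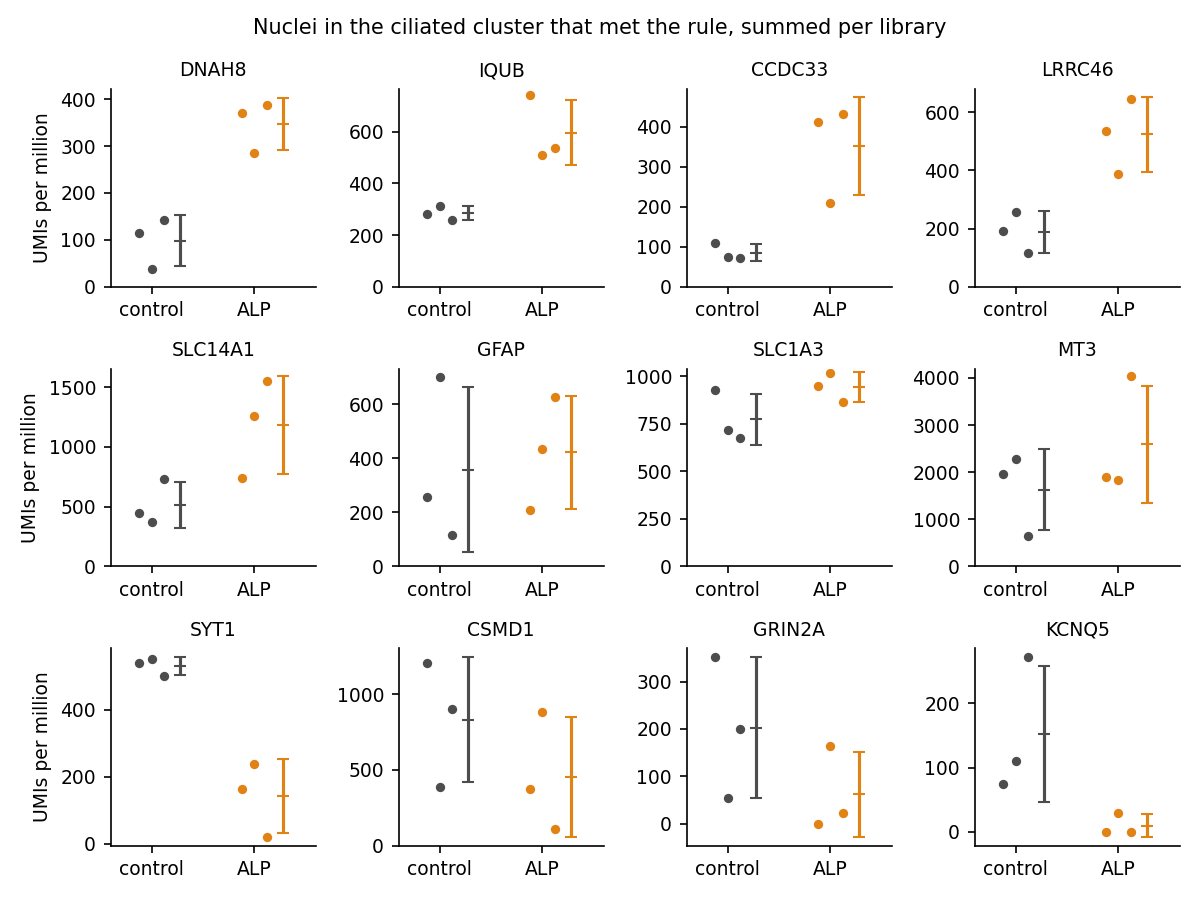
CPM of 12 genes in the nuclei of the ciliated cluster that met the rule, summed per library, for 3 control (grey) and 3 ALP libraries (orange), with the mean and SD of each group at the right. DNAH8, IQUB, CCDC33, LRRC46 and SLC14A1 were higher in each ALP library and SYT1 and KCNQ5 lower, while GFAP, SLC1A3, MT3, CSMD1 and GRIN2A overlapped between the groups.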

How the data were processed

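The authors deposited raw UMI counts per gene and barcode, made with Cell Ranger (version 3.1.0 in the submitters' notes, 6.1.2 in the file headers), for 83605 features. Nuclei with at least 200 genes were kept, without the upper limit of 2500 genes or 5% mitochondrial UMIs of the study. They were clustered (2000 variable genes, 30 components, 20 neighbours, leidenalg 0.10.2, resolution 2), and doublets were marked at 0.8% per 1000 barcodes and kept. Values in CPM are UMIs summed over nuclei. UMIs summed per library were tested with edgeR 4.0.16 (R 4.3.3, filterByExpr with a minimum count of 10, TMM scaling), with DESeq2 1.42.0 as an alternative. CPM of the features in these comparisons are scaled by TMM, while the sums of the 16 neuron markers are not. A call needed an adjusted p under 0.05 and a log2 fold change beyond 0.25. On simulated data with 200 genes changed by 2 on the log2 scale, 51.9% were recovered for all nuclei that met the rule and 97.6% with other cell types left out. Intervals are exact binomial at 95%, and a count of 0 was taken to allow 3. Each library is 1 animal.

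The members and the 23 gene lists were chosen with earlier results of these data known. Genes were named by rule: the rule genes, up to 5 members of each list with the highest CPM, the 25 features with the highest ratio among those in at least 20% of the nuclei, the 8 largest rises and falls (or the 8 smallest p) and called list members. The ratios were taken over the 150 nuclei of the cluster, a choice made after values were seen, as were KIF3A, EZR, CTNNB1, DNAH10 and THSD7B. Some genes that this rule names are not reported here.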

Additional observations from a re-analysis of the deposited data

How the results depend on the processing

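The share of nuclei that met the rule stayed lower in ALP under every alternative run, with the difference between -3.59 percentage points when the 5 genes set to 0 were ignored and -0.145 with nuclei of other cell types left out, and between -1.90 and -0.987 with 1 library left out. For expression in all 561 nuclei, where edgeR called 0 features, DESeq2 called 33, no filter on low counts gave 407, and leaving out 1 library gave 0 to 3. With nuclei of other cell types left out 66 features were called. Alternatives to that count, chosen after seeing the data, gave 0 to 159 with 1 library left out, 64 with the replicate number as a block and 92 with a Y-linked covariate, which gave 0 over all nuclei. The cause of these shifts was not tested. Over all nuclei the replicate block gave 0 calls (641 at an unadjusted p under 0.05), and deviations of same-numbered libraries correlated at -0.31, 0.15 and -0.36, so that the numbers do not pair the libraries. Among the 24 named features, 291 values kept direction and side of the threshold, 53 passed it where they had not before, and 1 reversed: EPHA6, at -0.26 over all nuclei, ran from -0.57 to 0.034 with 1 library left out, the latter without ALP 3. Sums of 12 to 45 ciliated nuclei per library limit what low genes can show.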
